A study of Mus musculus with 12 samples.

Results

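The interleukin-1 (IL-1) and interleukin-18 (IL-18) inflammasome axis was followed through 10 genes chosen by symbol, *Il1a*, *Il1b*, *Il1rn*, *Il1r2*, *Nlrp3*, *Casp1*, *Il18*, *Il18bp*, *Il18r1* and *Il18rap*. Each symbol was matched to its Ensembl identifier in the deposited read count table, and the 10 genes are 10 of 54532 identifiers in that table. All 10 passed the filter on low counts, which kept 17473 genes for testing. The libraries are poly(A) RNA sequencing of mouse lung in 4 groups of 3. CKO_CRE lungs came from Cc10-Cre mice with both *Rhoa* alleles floxed that received a treatment labelled CRE, and WT_CRE lungs from Cc10-Cre mice without floxed *Rhoa* that received the same. CKO_PBS and WT_PBS lungs came from the same pair of genotypes given PBS. Every group therefore carries the Cc10-Cre transgene, including the controls. Cc10, the product of *Scgb1a1*, is a secretory protein of airway club cells, so Cre is restricted to Cc10-expressing cells while the RNA is from the lung as labelled, with all its cell types. The labels do not spell out CRE, which is kept here as a label and is not the Cre recombinase. The sources used here give no age, strain, dose or time.

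IL-1 alpha, IL-1 beta and IL-18 belong to one cytokine family and signal through paired receptors that recruit MyD88. IL-1 beta and IL-18 are made as inactive precursors and are cut by caspase-1, which is switched on by inflammasomes such as the one built around NLRP3, whereas IL-1 alpha is active without that cut. Each branch has its own brakes, the receptor antagonist encoded by *Il1rn* and the decoy receptor encoded by *Il1r2* for IL-1, and the binding protein encoded by *Il18bp* for IL-18. In lung, IL-18 is known from epithelial cells and macrophages and IL-1 beta from myeloid cells. Transcript counts do not show cutting or release of the proteins.

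Library totals ran from 16250674 to 21559210 counts. *Rhoa*, the floxed gene, averaged 502 ± 40 CPM (counts scaled to library size with TMM factors) in CKO_CRE, 525 ± 5.28 in WT_CRE, 449 ± 45.1 in CKO_PBS and 481 ± 8.88 in WT_PBS (SD, n = 3 each). It did not separate the genotypes under CRE (log2 -0.07 ± 0.10, SE; adjusted p = 0.741) or PBS (log2 -0.10 ± 0.10; adjusted p = 1), so the counts give no check of the genotype labels. *Scgb1a1*, the gene of Cc10, averaged 12.4 CPM in CKO_CRE, 8.3 in WT_CRE, 36.4 in CKO_PBS and 35.5 in WT_PBS. These are low levels for the gene of a protein that airway club cells secrete in abundance, and lie below those of *Scgb3a2*, another secretory gene of the airway, in every group. Y-linked counts marked 1 library as male in CKO_CRE, 1 in WT_CRE, 2 in CKO_PBS and 3 in WT_PBS, so sex is unevenly spread over the groups. CKO_CRE replicate 2 stood apart from the other libraries of its group. Leaving it out took the number of genes that passed the test for CKO against WT under CRE to 5110, against 156 with it, so results of the 10 genes that rest on it are given with and without it. For the marker lists, the wider gene lists and the neighbours of *Il18*, values without it come from an alternative added after the data were seen, in which 29.7% of tested genes were called for CRE in CKO. Nothing in the labels says that libraries of a group came from separate animals, and the p-values measure the spread between these libraries, which may in part be technical.

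**Figure D1:**
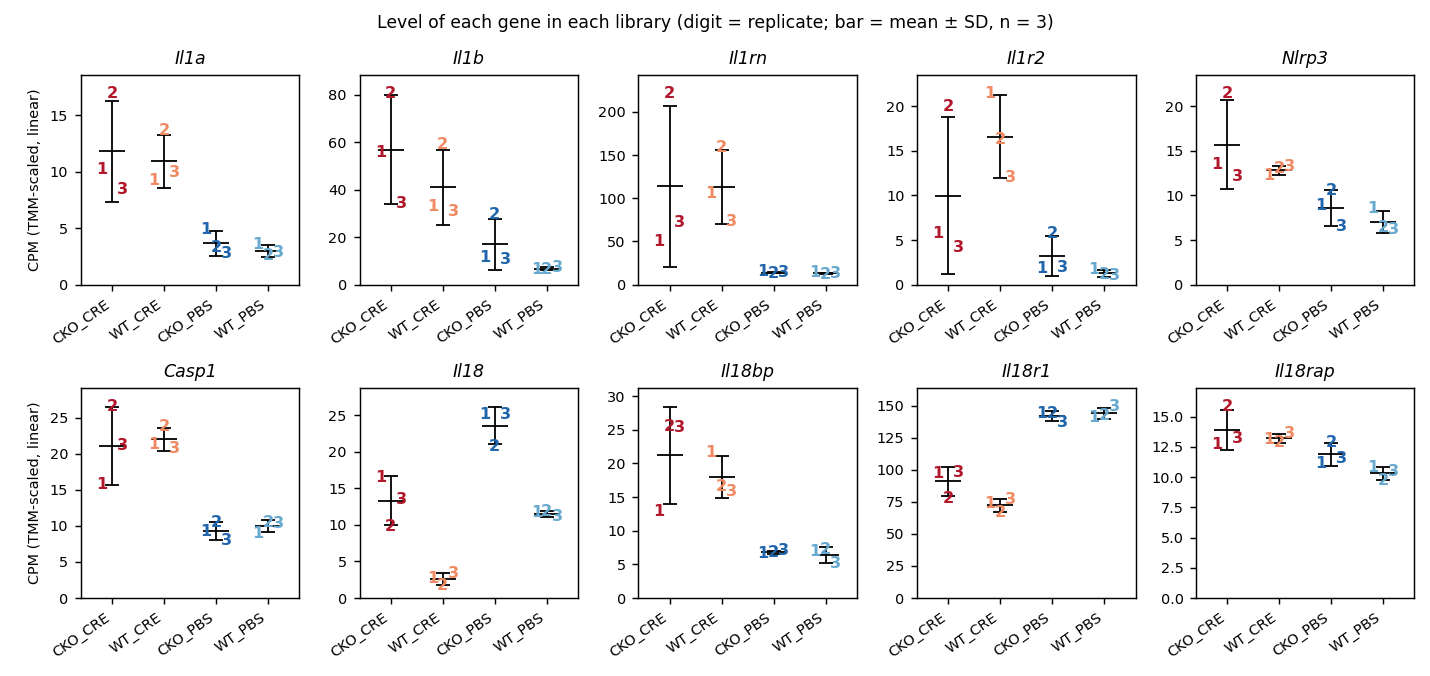
TMM-scaled CPM (linear axis) of each of the 10 genes in all 12 libraries, by group; digits mark replicates and bars the mean ± SD (n = 3). *Il18* and *Il18r1* are lower in the CRE groups than in the PBS groups of the same genotype, and the other panels show higher or overlapping CRE values, with CKO_CRE replicate 2 at the top of its group for *Il1b*, *Il1rn* and *Il1r2*.

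Scaled for exon length (TPM, counts per kilobase of exon as a share of the library), the levels of the genes were ordered differently under CRE and under PBS. In CKO_CRE the highest mean levels were *Il1b* at 88.9 ± 32.2 TPM, *Il1rn* at 61.1 ± 47.1 and *Il18r1* at 57.2 ± 9.5, and in WT_CRE they were *Il1b* at 58.5 ± 27.3, *Il1rn* at 55.8 ± 26.1 and *Il18r1* at 39.9 ± 3.24 (SD, n = 3 each). These 3 neighbours in the order lay within each other's spread in CKO_CRE. In CKO_PBS the order was led by *Il18r1* at 103 ± 3.98 TPM and *Il18* at 80.2 ± 10.7, and in WT_PBS by the same genes at 105 ± 3.39 and 39.4 ± 1.16. *Il18* was the fifth of the 10 genes by mean TPM in CKO_CRE, at 39.0 ± 10.7, and the ninth in WT_CRE, at 6.52 ± 1.42. *Il18rap* had the lowest mean under CRE in both genotypes, at 6.21 ± 0.513 TPM in CKO_CRE and 5.21 ± 0.476 in WT_CRE, and *Il1r2* had the lowest mean under PBS, at 5.79 ± 3.86 in CKO_PBS and 2.32 ± 0.662 in WT_PBS.

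The first question was what CRE did to the axis in each genotype. In CKO lungs, 7 of the 10 genes rose and 2 fell under CRE, all at an adjusted p below 0.05 by edgeR's quasi-likelihood test with Benjamini-Hochberg adjustment over all tested genes, while 39.0% of all tested genes were called in that comparison (20.5% higher and 18.5% lower). In WT lungs 8 rose and 2 fell, against a background of 56.8% of tested genes called (28.5% higher and 28.3% lower). The cytokines, antagonists and decoys of the IL-1 branch, *Nlrp3*, *Casp1* and *Il18bp* made up the 7 that rose in CKO lungs and were joined by *Il18rap* in WT lungs; *Il18* and *Il18r1* fell in both. The median log2 change over the 10 genes was 1.41 in CKO and 1.32 in WT, against 0.004 and 0.01 over all tested genes. With so large a background, the counts alone do not set these genes apart from others that changed under CRE.

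**Figure D2:**
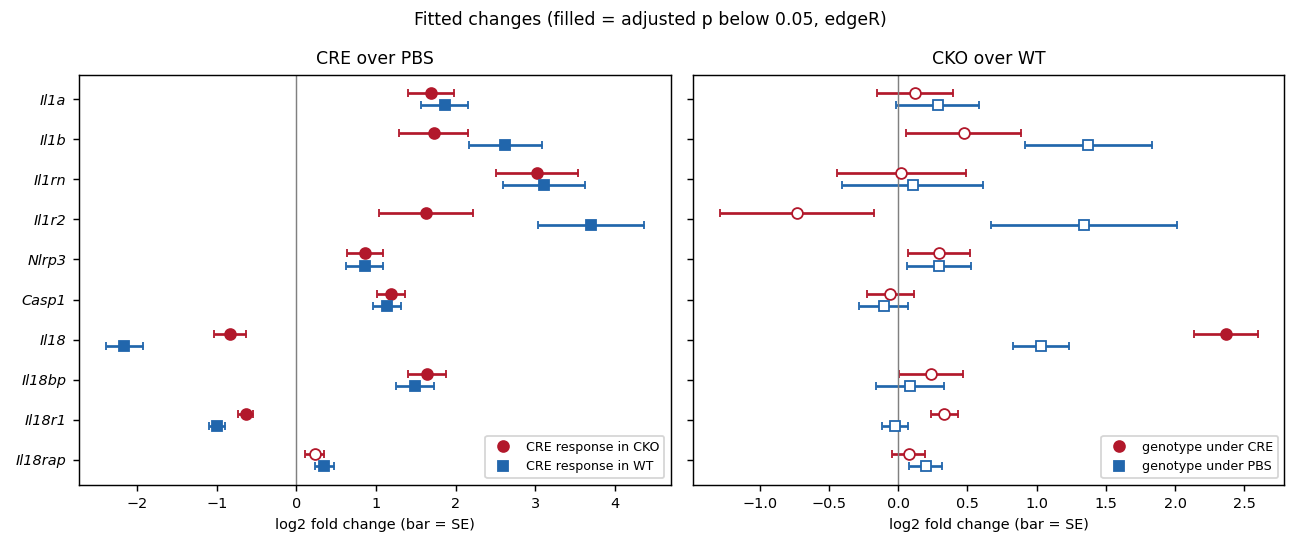
Log2 fold changes fitted by edgeR with their standard errors, CRE over PBS in each genotype (left) and CKO over WT under each treatment (right); filled symbols have an adjusted p below 0.05. On the left 7 genes lie to the right of zero and filled in both genotypes, and *Il18* and *Il18r1* to the left; on the right *Il18* under CRE is the one filled symbol.

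The IL-1 ligands rose in both genotypes. *Il1a* (chr2:129299610-129309972, minus strand, GRCm38), which encodes IL-1 alpha, stood at 10.2, 16.9 and 8.41 CPM in CKO_CRE, 9.21, 13.6 and 9.89 in WT_CRE, 4.91, 3.28 and 2.79 in CKO_PBS and 3.59, 2.57 and 2.83 in WT_PBS. All 6 CRE libraries lay above all 6 PBS libraries, and the genotypes overlapped under each treatment. The change was log2 1.70 ± 0.29 in CKO (adjusted p = 0.00114) and 1.86 ± 0.30 in WT (adjusted p = 0.000283). An antisense transcript, *Gm14023*, shares 222 exon bases with *Il1a*, and reads of the pair cannot be told apart without strand.

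*Il1b* (chr2:129364570-129371139, minus strand) encodes IL-1 beta, the cytokine that needs caspase-1. It measured 55.8, 80.5 and 34.3 CPM in CKO_CRE, 33.1, 59.1 and 30.7 in WT_CRE, 11.3, 29.5 and 10.6 in CKO_PBS, and 6.27, 6.30 and 7.37 in WT_PBS. CKO_PBS replicate 2, at 29.5 CPM, was close to the lowest CRE libraries, and each CKO_PBS library was above each WT_PBS library. The rise under CRE was log2 1.73 ± 0.43 in CKO (adjusted p = 0.0104) and 2.63 ± 0.46 in WT (adjusted p = 0.000822). Without CKO_CRE replicate 2 the CKO rise was 1.39 and missed the threshold (adjusted p = 0.071); without CKO_PBS replicate 2 it was 2.37. The antisense transcript *Il1bos* shares 25 exon bases with *Il1b*.

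The receptor antagonist and the decoy receptor rose with the ligands. *Il1rn* (chr2:24336853-24351494, plus strand), whose product occupies the IL-1 receptor without signalling, was at 50.0, 221 and 71.9 CPM in CKO_CRE, 106, 159 and 73.0 in WT_CRE, 14.8, 13 and 14.4 in CKO_PBS, and 14, 12 and 13.2 in WT_PBS. The PBS libraries spanned 12 to 14.8 CPM and every CRE library was above them, with CKO_CRE replicate 2 the highest of all 12. The rise was log2 3.02 ± 0.52 in CKO (adjusted p = 0.00181) and 3.11 ± 0.52 in WT (adjusted p = 0.000678). It was 2.12 in CKO without CKO_CRE replicate 2.

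*Il1r2* (chr1:40074079-40125231, plus strand), which encodes a receptor that binds IL-1 without transmitting a signal, had 5.71, 20.0 and 4.12 CPM in CKO_CRE, 21.4, 16.3 and 12 in WT_CRE, 1.86, 5.77 and 1.97 in CKO_PBS, and 1.67, 1.11 and 1.00 in WT_PBS. In WT the treatments were far apart, whereas in CKO they overlapped, because CKO_PBS replicate 2 exceeded the lowest CKO_CRE libraries. In WT the rise was log2 3.70 ± 0.66 (adjusted p = 0.000807). In CKO it was 1.63 ± 0.60 with an adjusted p of 0.0496, just inside the threshold. Of the 12 fits that left out 1 library, the CKO call was kept in 3, without CKO_CRE replicate 1 (adjusted p = 0.0334), CKO_CRE replicate 3 (0.0191) or CKO_PBS replicate 2 (0.0179, log2 2.37), and lost in the other 9. Among those 9, the change was 0.61 without CKO_CRE replicate 2 (adjusted p = 0.371), 1.36 and 1.37 without CKO_PBS replicate 1 (0.139) or 3 (0.152), and 1.63 without any 1 of the WT libraries (0.0568 to 0.0668).

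The neutrophil marker sum was highest in the same CKO libraries as *Il1b* and *Il1r2*, and the part they play in either result was not tested. The summed level of 12 neutrophil markers was 342, 562 and 221 CPM in CKO_CRE, 484, 617 and 373 in WT_CRE, 248, 454 and 127 in CKO_PBS, and 127, 102 and 99.9 in WT_PBS. CKO_PBS replicate 2 and CKO_CRE replicate 2, the highest of their groups for *Il1b* and *Il1r2*, were also the highest of their groups for this sum. In WT_CRE, replicate 2 had the highest sum but replicate 1 the highest *Il1r2*, at 21.4 against 16.3 CPM. Of the 10 neutrophil markers tested, 2 rose and none fell under CRE in CKO, and 8 rose and none fell in WT, where 20.5% of all tested genes were called higher in CKO and 28.5% in WT. The median change of these markers was log2 -0.001 in CKO and 1.82 in WT, and 0 were called between the genotypes under CRE or PBS. In CKO 1 rose without CKO_CRE replicate 2, with a median of -0.58. *Mpo* was at 0 in 7 of the 12 libraries, and *Ly6g* averaged 0.157 CPM in CKO_CRE, 0.238 in WT_CRE, 0.546 in CKO_PBS and 0.137 in WT_PBS. In whole tissue, more cells of a type and more RNA per cell cannot be told apart, and this holds for every gene below.

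**Figure D3:**
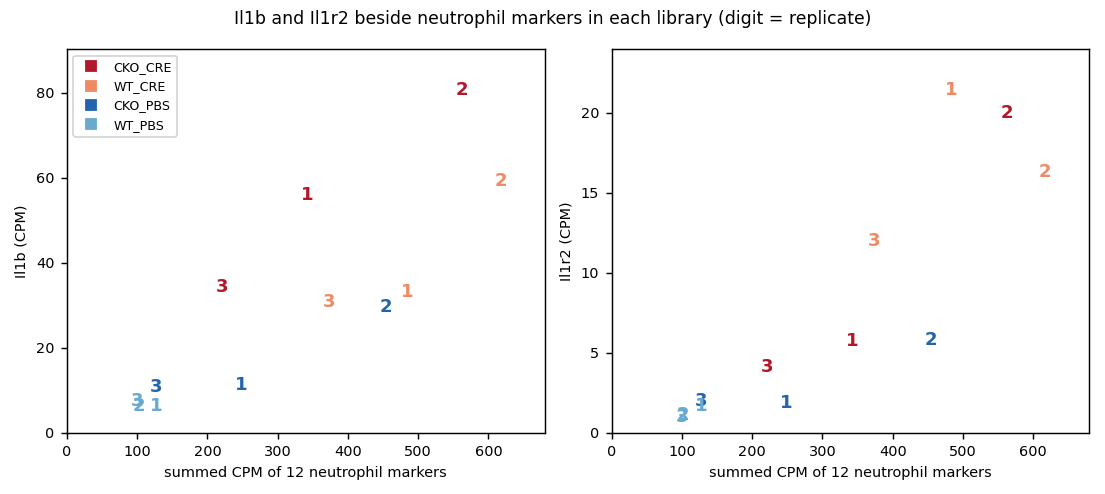
*Il1b* (left) and *Il1r2* (right) in TMM-scaled CPM against the summed CPM of 12 neutrophil markers, 1 digit per library, coloured by group. The libraries with the lowest marker sums are those of WT_PBS, at 99.9 to 127 CPM, and CKO_PBS replicate 3, at 127. CKO_PBS replicate 2 is at 454 CPM of markers with 29.5 CPM of *Il1b* and 5.77 CPM of *Il1r2*.

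The inflammasome genes rose under CRE in both genotypes, by similar amounts when all libraries were fitted. *Nlrp3* (chr11:59541568-59566956, plus strand), the sensor that assembles the complex, was at 13.5, 21.4 and 12.1 CPM in CKO_CRE, 12.2, 13 and 13.2 in WT_CRE, 8.89, 10.5 and 6.49 in CKO_PBS, and 8.49, 6.45 and 6.19 in WT_PBS. Every CRE library was above every PBS library, and CKO_CRE replicate 2 was the highest. The rise was log2 0.86 ± 0.23 in CKO (adjusted p = 0.0112) and 0.86 ± 0.23 in WT (adjusted p = 0.0072). Without CKO_PBS replicate 3 the CKO rise was 0.69 with an adjusted p of 0.0513, and with only the CKO groups fitted the adjusted p was 0.0586. Over the 12 fits without 1 library, the rise ran from log2 0.57 to 1.03 in CKO and from 0.77 to 1.01 in WT. The likeness of the *Nlrp3* rises thus depends on which libraries are fitted.

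*Casp1* (chr9:5298517-5307265, plus strand), the protease gene of the complex, was at 15.7, 26.5 and 21.2 CPM in CKO_CRE, 21.3, 23.8 and 20.8 in WT_CRE, 9.25, 10.5 and 7.98 in CKO_PBS, and 8.99, 10.5 and 10.3 in WT_PBS. The treatments did not overlap in either genotype and the genotypes overlapped under both. Its change was log2 1.19 ± 0.18 in CKO (adjusted p = 0.000507) and 1.14 ± 0.18 in WT (adjusted p = 0.000231).

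*Il18* (ENSMUSG00000039217, chr9:50554827-50581840, plus strand) moved the other way. It was at 16.5, 9.82 and 13.5 CPM in CKO_CRE, 2.65, 1.75 and 3.32 in WT_CRE, 25.1, 20.7 and 25.1 in CKO_PBS, and 11.7, 11.8 and 11.1 in WT_PBS. Every CKO library was above every WT library of the same treatment, every CRE library was below every PBS library of the same genotype, and CKO_CRE overlapped WT_PBS. Behind these values lie 275, 168 and 229 reads in CKO_CRE, 42, 32 and 62 in WT_CRE, 486, 448 and 522 in CKO_PBS, and 232, 234 and 189 in WT_PBS. Under CRE *Il18* fell by 0.83 ± 0.20 on the log2 scale in CKO (adjusted p = 0.00758) and fell by 2.16 ± 0.23 in WT (adjusted p = 2.6e-05), and both falls passed the test in each of the 12 fits without 1 library. *Casp1*, whose product cuts the IL-18 precursor, rose in the same comparisons.

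Between the genotypes *Il18* was 5.15-fold higher in CKO_CRE than in WT_CRE (log2 2.36 ± 0.23, adjusted p = 0.000418). It was the 1 gene of the 10 called in this comparison, in which 0.893% of tested genes were called, and it ranked 9 of 17473 by p. The call passed in every alternative and every fit without 1 library, with log2 values from 2.15 to 2.60. Under PBS *Il18* was 2.04-fold higher in CKO (log2 1.03 ± 0.20; edgeR adjusted p = 0.117), which missed the threshold. That PBS difference was called by DESeq2 (adjusted p = 0.000474), by limma-voom with quality weights (0.000266), without the low-count filter (0.014), with only the PBS groups fitted (0.00116) and without CKO_CRE replicate 2 (0.0104). These are 4 of the 7 alternatives and 1 of the 12 fits without 1 library, in which the edgeR adjusted p reached 0.533. The interaction, the CRE response in CKO minus that in WT, was log2 1.33 ± 0.31 (adjusted p = 0.227) and was called without CKO_CRE replicate 2 (1.51; adjusted p = 0.00277), by DESeq2 (adjusted p = 0.00861) and by limma-voom (0.00228). It was thus called in 2 of 6 alternatives and 1 of the 12 fits without 1 library, with an edgeR adjusted p of up to 0.581.

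Because *Il18* was the gene called between genotypes, the 250 bases before its RefSeq start are shown (GRCm38.p6, chr9:50554450-50554699, plus strand, 5′ to 3′). They lie inside the body of *Bco2*, which is transcribed from the other strand, and outside its exons. Capitals mark a match to the STAT6 motif, TTC and GAA with 4 bases between them.
Il18: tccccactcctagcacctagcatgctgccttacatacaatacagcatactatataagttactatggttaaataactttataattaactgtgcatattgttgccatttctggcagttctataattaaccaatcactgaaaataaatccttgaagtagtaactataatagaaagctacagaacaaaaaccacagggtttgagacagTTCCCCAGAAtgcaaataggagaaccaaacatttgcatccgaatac
A second, separate match in this stretch, to the spaced C/EBP letters TTNNNCAAT, starts 128 bases before the RefSeq start.

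The IL-18 binding protein rose as the cytokine transcript fell. *Il18bp* (chr7:102014885-102018690, minus strand), whose secreted product captures IL-18, was at 12.9, 25.5 and 25.3 CPM in CKO_CRE, 21.6, 16.6 and 15.8 in WT_CRE, 6.56, 6.79 and 7.01 in CKO_PBS, and 6.87, 7.20 and 5.07 in WT_PBS. All CRE libraries were above all PBS libraries, and the genotypes overlapped. The rise was log2 1.64 ± 0.24 in CKO (adjusted p = 0.000481) and 1.49 ± 0.24 in WT (adjusted p = 0.000322). *Numa1*, on the other strand, shares 80 exon bases with it.

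The receptor chains behaved differently from each other. *Il18r1* (chr1:40465552-40500854, plus strand), the chain that binds IL-18, was at 97.3, 77.8 and 97.9 CPM in CKO_CRE, 73.4, 66.8 and 76.5 in WT_CRE, 144, 144 and 137 in CKO_PBS, and 141, 142 and 149 in WT_PBS. The CRE libraries were all below the PBS libraries, and CKO_CRE was just above WT_CRE, at 77.8 CPM for its lowest against 76.5 CPM for the highest WT_CRE library. *Il18r1* fell by 0.64 ± 0.10 on the log2 scale in CKO (adjusted p = 0.000548) and fell by 1.00 ± 0.10 in WT (adjusted p = 1.52e-05). The genotype difference under CRE was log2 0.33 ± 0.10 (adjusted p = 0.122) and was called without CKO_CRE replicate 2 (0.44; adjusted p = 0.000965), by DESeq2 (adjusted p = 0.0379) and by limma-voom (0.000173).

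*Il18rap* (chr1:40515362-40551705, plus strand), the accessory chain needed for signalling, was at 12.7, 15.8 and 13.2 CPM in CKO_CRE, 13.1, 12.9 and 13.6 in WT_CRE, 11.1, 12.9 and 11.5 in CKO_PBS, and 10.8, 9.72 and 10.5 in WT_PBS. The treatments overlapped in CKO and did not in WT. The change was log2 0.23 ± 0.12 in CKO (adjusted p = 0.145) and 0.35 ± 0.12 in WT (adjusted p = 0.0253). The WT call was lost without WT_CRE replicate 1 (adjusted p = 0.0554), WT_CRE replicate 3 (0.0685), WT_PBS replicate 2 (0.0943) or WT_PBS replicate 3 (0.06).

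Ratios within a library do not depend on how libraries are scaled. The ratio of *Il18bp* to *Il18* CPM was 0.782, 2.60 and 1.88 in CKO_CRE, 8.17, 9.47 and 4.77 in WT_CRE, 0.261, 0.328 and 0.280 in CKO_PBS, and 0.586, 0.611 and 0.455 in WT_PBS. No pair of groups overlapped, and WT_CRE was the highest and CKO_PBS the lowest. The ratio of *Il1rn* to *Il1b* averaged 1.91 ± 0.939 in CKO_CRE, 2.76 ± 0.426 in WT_CRE, 1.04 ± 0.517 in CKO_PBS and 1.97 ± 0.229 in WT_PBS (SD, n = 3 each). It was below the WT_PBS range in all 3 CKO_PBS libraries and overlapped between the genotypes under CRE. *Il1r2* over *Il1b* averaged 0.157 ± 0.0802 in CKO_CRE, 0.438 ± 0.19 in WT_CRE, 0.182 ± 0.0164 in CKO_PBS and 0.193 ± 0.0666 in WT_PBS, and CKO_CRE, at 0.102 to 0.249, lay below WT_CRE, at 0.275 to 0.647. *Il1rn* over *Il1a* averaged 8.85 ± 4.11 in CKO_CRE, 10.2 ± 2.47 in WT_CRE, 4.05 ± 1.08 in CKO_PBS and 4.41 ± 0.445 in WT_PBS, overlapping between genotypes under both treatments. These ratios are descriptions and carry no test.

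**Figure D4:**
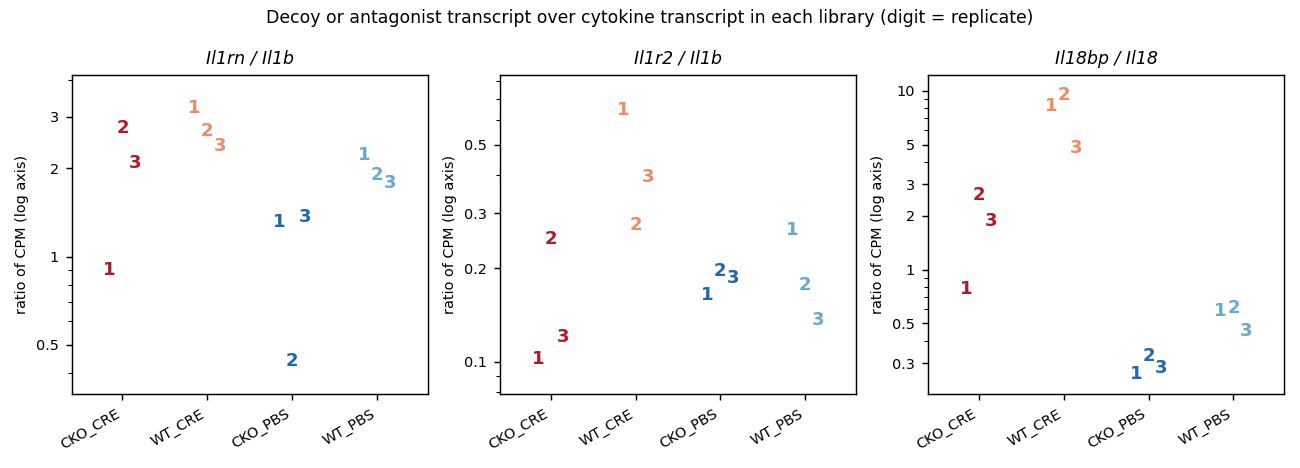
Ratio of CPM (log axis) in each library for *Il1rn* over *Il1b*, *Il1r2* over *Il1b* and *Il18bp* over *Il18*, with digits marking replicates. For *Il18bp* over *Il18* the 4 groups do not overlap, from 0.261 to 0.328 in CKO_PBS up to 4.77 to 9.47 in WT_CRE.

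Apart from *Il18*, none of the 10 genes passed edgeR's test between genotypes. Under CRE, 2 of the 10 did not overlap between CKO_CRE and WT_CRE, *Il18* and *Il18r1*, both higher in CKO_CRE, where 7.37% of all tested genes were higher without overlap. The changes of the others ran from log2 -0.73 ± 0.56 for *Il1r2* (adjusted p = 0.491) to 0.47 ± 0.42 for *Il1b* (adjusted p = 0.549). *Il1r2* passed by limma-voom, at -2.05 (adjusted p = 0.00018), and by edgeR without CKO_CRE replicate 2, at -1.75 (adjusted p = 0.0189), with 20.0 CPM in that library against 5.71 and 4.12 in the other CKO_CRE libraries. *Il1rn* was at log2 0.02 ± 0.47 (adjusted p = 0.985) and at -0.88 without CKO_CRE replicate 2 (adjusted p = 0.0547), so its direction rests on that library. Limma-voom, which gives libraries unequal weights, called it lower in CKO_CRE (-0.61; adjusted p = 0.0177).

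Under PBS, 0 of the 10 genes were called by edgeR, against 0.12% of tested genes, and 2 had an unadjusted p below 0.05, *Il18* and *Il1b*, as did 5.27% of tested genes. DESeq2 and limma-voom each called 1 of the 10, against 114 and 146 of all 17473 tested genes. *Il18*, *Il18rap*, *Il1b* and *Il1r2* were higher in every CKO_PBS library than in any WT_PBS library, as were 7.65% of all tested genes. *Il1b* was 2.59-fold higher (log2 1.37 ± 0.46; adjusted p = 0.634) and *Il1r2* 2.53-fold higher (log2 1.34 ± 0.67; adjusted p = 1). Without CKO_PBS replicate 2 these differences were log2 0.72 for *Il1b* (adjusted p = 1) and 0.60 for *Il1r2* (adjusted p = 1), so their size rests on that library. Its neutrophil marker sum was 454 CPM against 99.9 to 127 in WT_PBS. It was also the only PBS library not marked as male, with Y-linked counts of 0 CPM against 153 to 215 in the others. The part of either feature was not tested.

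The interaction was called by edgeR for 0 of the 10 genes, against 0.0515% of tested genes, and 3 had an unadjusted p below 0.05, *Il18*, *Il18r1* and *Il1r2*, as did 10.3% of tested genes. DESeq2 called 1 of the 10 and 128 of all 17473 tested genes, and limma-voom called 3 and 4371. *Il18r1* was at log2 0.36 ± 0.14 (adjusted p = 0.427) and *Il1r2* at -2.07 ± 0.88 (adjusted p = 0.465). Without CKO_CRE replicate 2, *Il18*, *Il18r1* and *Il1r2* all passed, *Il18r1* at 0.46 (adjusted p = 0.00886) and *Il1r2* at -3.09 (adjusted p = 0.0137). That fit called 15.1% of all tested genes for the interaction. The CRE responses of the remaining 7 genes were not called different between the genotypes in any fit without 1 library, and the *Il1b* interaction was -0.90 ± 0.62 (adjusted p = 0.606). The 5 comparisons share libraries and are not independent of each other.

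*Il18* and *Casp1* lie on chromosome 9, as does *Rhoa*, with 57.8 Mb between the starts of *Il18* and *Rhoa*. Chromosome 9 held 34 of the 156 genes called between genotypes under CRE (21.8%) and 11 of the 21 called under PBS (52.4%), against 5.6% of the tested genes. Of 24 other tested genes that start within 1 Mb of *Il18*, 3 were called under CRE and 1 under PBS, and without CKO_CRE replicate 2 the count under CRE was 13, when 28.5% of all tested genes were called. *Plet1*, a membrane protein gene whose start is at -60.3 kb from that of *Il18*, averaged 72.6 ± 15.4 CPM in CKO_CRE and 31.8 ± 4.41 in WT_CRE (log2 1.19 ± 0.14; adjusted p = 0.00177). Under PBS it averaged 46.0 ± 1.76 in CKO and 51.5 ± 3.31 in WT (log2 -0.16 ± 0.14; adjusted p = 1).

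*Pts*, which encodes an enzyme of tetrahydrobiopterin synthesis, was lower in CKO_CRE than in WT_CRE, at 23.0 ± 0.935 and 32.8 ± 0.757 CPM (log2 -0.51 ± 0.08; adjusted p = 0.0122), and was at log2 -0.43 ± 0.08 under PBS (adjusted p = 0.0914). *Gm32742*, a predicted gene 575.5 kb from *Il18*, averaged 4.33 ± 2.22 CPM in CKO_CRE and 0.856 ± 0.1 in WT_CRE (adjusted p = 0.0153), and 8.45 ± 0.954 in CKO_PBS and 1.74 ± 0.243 in WT_PBS (adjusted p = 0.0279). The tested genes nearest to *Il18* on either side, *Bco2* (log2 0.61 ± 0.23 under CRE; adjusted p = 0.195) and *Sdhd* (-0.44 ± 0.13; adjusted p = 0.125), were not called. With CKO_CRE replicate 2 left out, *Sdhd* was called at -0.63 (adjusted p = 0.000189) and *Bco2* was not, at 0.55 (adjusted p = 0.156). Whether the *Il18* difference goes with the deletion or with other alleles carried on the same chromosome cannot be told apart with these groups.

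**Figure D5:**
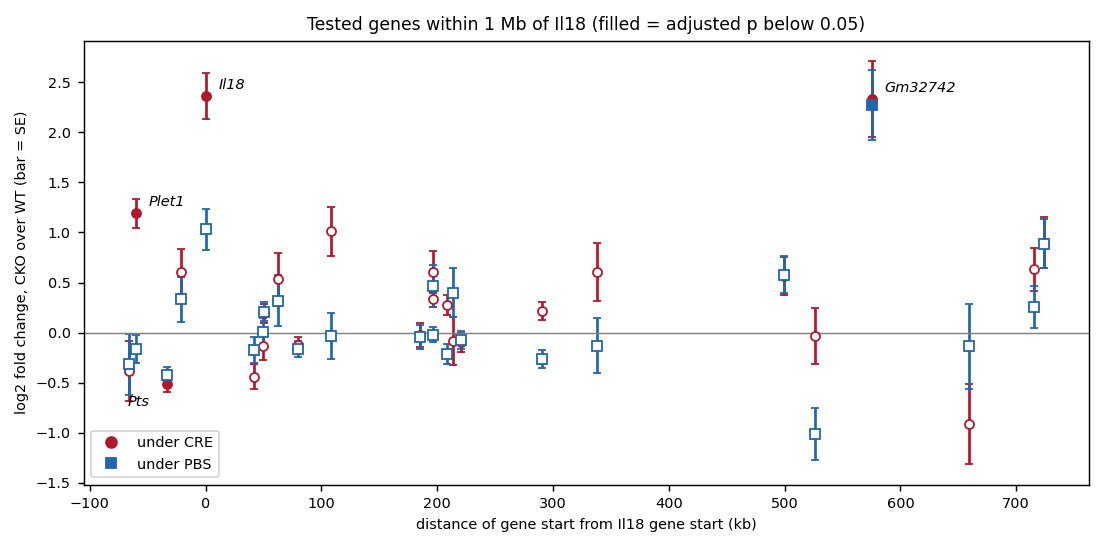
Log2 fold change of CKO over WT with standard errors, under CRE and under PBS, for *Il18* and the 24 other tested genes that start within 1 Mb of it, by distance of gene start in kb; filled symbols have an adjusted p below 0.05. Among the neighbours *Plet1*, *Pts* and *Gm32742* are filled under CRE and *Gm32742* under PBS.

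Markers of the cell types that could carry these transcripts moved with treatment, and their part in the results was not tested. The sum of 7 airway epithelial markers ranged over 987 to 1291 CPM in CKO_CRE, 794 to 819 in WT_CRE, 1642 to 2429 in CKO_PBS and 2804 to 3010 in WT_PBS. *Scgb3a2* gave most of the difference, with means of 380.0 CPM in CKO_CRE, 190.0 in WT_CRE, 1588 in CKO_PBS and 2318 in WT_PBS. The sum was higher in CKO than in WT under CRE and lower in CKO than in WT under PBS, while *Il18* was higher in CKO under both. *Krt5*, the basal cell keratin of that list, was at 0 in 9 libraries, and none of the list's 6 tested markers was called between genotypes under either treatment. The list did not move one way under CRE, with 1 marker rising and 2 falling in CKO (median log2 -0.04) and 2 rising and 3 falling in WT (median -0.34). Over all tested genes, 20.5% were called higher and 18.5% lower in CKO, and 28.5% higher and 28.3% lower in WT. *Muc5ac*, a gel-forming mucin gene of goblet cells, averaged 134.0 CPM in CKO_CRE and 3.24 in CKO_PBS (log2 5.36 ± 0.39; adjusted p = 1.57e-05), and 67.2 in WT_CRE and 6.55 in WT_PBS (3.35 ± 0.36; adjusted p = 4.06e-05). The adhesion genes *Epcam* and *Cdh1*, shared by many epithelial cells, were at or above their PBS levels. *Epcam* was at log2 0.34 ± 0.18 in CKO (adjusted p = 0.159) and 0.47 ± 0.18 in WT (adjusted p = 0.0476), and *Cdh1* at 0.14 ± 0.10 in CKO (adjusted p = 0.264) and 0.08 ± 0.10 in WT (adjusted p = 0.49). In the fit without CKO_CRE replicate 2, 2 of the 6 were called higher and 1 lower in CKO_CRE than in WT_CRE, when 28.5% of all tested genes were called. The alveolar epithelial sum (7 markers) ranged over 18739 to 22884 CPM in CKO_CRE, 17896 to 20609 in WT_CRE, 25795 to 27743 in CKO_PBS and 24832 to 26455 in WT_PBS. Under CRE 6 of these 7 markers fell and 1 rose in each genotype, and 4 of 4 endothelial markers fell in each, as *Il18* and *Il18r1* did. Without CKO_CRE replicate 2, 4 alveolar epithelial markers fell in CKO, and 6 of these 7 and 3 of the 4 endothelial markers were called higher in CKO_CRE than in WT_CRE, against 0 of either with it. The genotype comparison under CRE called 28.5% of all tested genes without that library and 0.893% with it.

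Monocyte and interstitial macrophage markers mostly rose under CRE, and those of alveolar macrophages did not move one way. The sum of 8 monocyte markers ranged over 385 to 575 CPM in CKO_CRE, 313 to 401 in WT_CRE, 168 to 214 in CKO_PBS and 165 to 176 in WT_PBS. Under CRE 7 of the 8 rose in CKO, and 4 rose and 1 fell in WT. The marker counts here stand against 20.5% of all tested genes called higher and 18.5% lower in CKO, and 28.5% higher and 28.3% lower in WT. Interstitial macrophage markers (10 genes) summed to 1794 to 3885 CPM in CKO_CRE, 3087 to 3209 in WT_CRE, 1067 to 1194 in CKO_PBS and 1018 to 1289 in WT_PBS, with 9 rising and 1 falling in CKO and 8 rising and 1 falling in WT. Between the genotypes under CRE, 6 of the 10 were called lower in CKO_CRE without its replicate 2, against 0 with it. That comparison called 28.5% of all tested genes without the library and 0.893% with it. *Cx3cr1*, which is also on the monocyte list, was called higher in CKO_CRE in both fits. It was at log2 1.22 ± 0.19 with the library (adjusted p = 0.012) and 1.31 without it (adjusted p = 0.000458). Alveolar macrophage markers (10 genes) summed to 8496 to 10812 CPM in CKO_CRE, 9123 to 10830 in WT_CRE, 1309 to 1570 in CKO_PBS and 1168 to 1432 in WT_PBS. *Chil3*, a chitinase-like protein gene, carried most of that sum, with means of 8916 CPM in CKO_CRE, 9474 in WT_CRE, 1041 in CKO_PBS and 865 in WT_PBS. By count, 3 of the 10 rose and 2 fell in CKO (median log2 -0.02), and 3 rose and 5 fell in WT (median -1.38).

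The 3 alveolar macrophage markers called higher in CKO_CRE than in WT_CRE, of 10 on the list, were *Krt79*, *Cidec* and *Fabp1*. *Il18* was higher in the same comparison, in which 0.893% of all tested genes were called. *Krt79*, a keratin gene, averaged 50.8 CPM in CKO_CRE, 5.18 in WT_CRE, 32.3 in CKO_PBS and 29.6 in WT_PBS (CKO_CRE over WT_CRE log2 3.29 ± 0.49; adjusted p = 0.0151). *Cidec*, a lipid droplet gene, averaged 8.56 CPM in CKO_CRE, 1.64 in WT_CRE, 17.1 in CKO_PBS and 20.4 in WT_PBS (2.39 ± 0.47; adjusted p = 0.0427). *Fabp1*, a fatty acid binding protein gene, was low, at 1.4 CPM in CKO_CRE, 0.0935 in WT_CRE, 7.76 in CKO_PBS and 6.26 in WT_PBS (3.8 ± 0.63; adjusted p = 0.0161). *Marco*, the scavenger receptor gene, averaged 14.3 CPM in CKO_CRE, 2.88 in WT_CRE, 34.4 in CKO_PBS and 32.8 in WT_PBS, and was not called (2.30 ± 0.66; adjusted p = 0.129). In WT *Marco* fell by 3.50 ± 0.66 on the log2 scale under CRE (adjusted p = 0.00129), *Krt79* fell by 2.51 ± 0.49 (adjusted p = 0.00143) and *Cidec* fell by 3.64 ± 0.47 (adjusted p = 0.000103). In CKO *Marco*, *Krt79* and *Cidec* were not called. *Fabp1* fell in CKO (log2 -2.46 ± 0.39; adjusted p = 0.000741) and in WT (-5.95 ± 0.56; adjusted p = 1.36e-05). *Ear1*, also of this list, fell in CKO (-1.85 ± 0.31; adjusted p = 0.00115) and in WT (-3.10 ± 0.33; adjusted p = 2.97e-05). *Krt79*, *Cidec*, *Fabp1*, *Marco* and *Il18* all had higher means in CKO_CRE than in WT_CRE. Of the same list, *Siglecf* (17.5 against 18.5 CPM), *Chil3* (8916 against 9474) and *Ctsk* (288 against 327) had lower means in CKO_CRE. *Ear1*, *Ear2* and *Car4* had higher means there and were not called. The part of alveolar macrophages in the *Il18* difference was not tested. Under PBS, where *Il18* was also higher in every CKO library, none of the 10 markers was called and *Marco* was at log2 0.07 ± 0.55 (adjusted p = 1). Leaving out CKO_CRE replicate 2, 5 of the 10 were called higher in CKO_CRE than in WT_CRE and 1 lower, *Marco* among the higher (adjusted p = 0.0191). The 1 lower was *Ctsk* (log2 -0.65; adjusted p = 0.0361). That fit called 28.5% of all tested genes in this comparison.

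Of 8 T cell and innate lymphoid markers, 5 rose in CKO (2 without CKO_CRE replicate 2) and 7 in WT, with sums of 92.6 to 201 CPM in CKO_CRE, 219 to 240 in WT_CRE, 67.7 to 130 in CKO_PBS and 72.5 to 87.2 in WT_PBS. The share of all tested genes called higher was 20.5% in CKO and 28.5% in WT.

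Markers of NK cells, which are known to carry the IL-18 receptor, summed to 17.8 to 35.3 CPM in CKO_CRE, 19.5 to 42.1 in WT_CRE, 28.2 to 37.6 in CKO_PBS and 27.0 to 50.1 in WT_PBS, and of 6 tested 0 were called in CKO while 1 rose and 2 fell in WT. Of 8 dendritic cell markers, 2 rose and 1 fell in CKO, and 1 rose and 2 fell in WT. Mast cell and basophil markers (5 tested) had 2 rising in CKO and 2 falling in WT. Of 4 tested eosinophil markers, 2 rose in CKO and 3 in WT, and *Epx*, the eosinophil peroxidase gene, was at 0 in 3 libraries. Counts in this paragraph stand against 39.0% of all tested genes called under CRE in CKO and 56.8% in WT.

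Other genes of the pathway, from lists of IL-1 family, inflammasome and target genes, more often rose than fell under CRE. Their counts stand against 39.0% of all tested genes called in CKO, 20.5% higher and 18.5% lower, and 56.8% in WT, 28.5% higher and 28.3% lower. Of the ligand genes outside the 10, 2 of 6 were tested and 1 rose, *Il33*, the epithelial alarmin, at 539 ± 96.5 CPM in CKO_CRE and 203 ± 47.3 in CKO_PBS (log2 1.41 ± 0.18; adjusted p = 0.000201). In WT it was at 869 ± 74.0 CPM under CRE and 132 ± 12.9 under PBS (log2 2.71 ± 0.18; adjusted p = 2.05e-06). Among 5 tested receptor genes 3 rose in CKO (2 without CKO_CRE replicate 2, when *Il1r1* was at an adjusted p of 0.0946), and 3 rose and 1 fell in WT. With all libraries fitted, *Il1rl1*, the receptor gene of IL-33, was the receptor gene called between genotypes. It was at 15.4 ± 3.4 CPM in CKO_CRE and 38.2 ± 6.11 in WT_CRE (log2 -1.31 ± 0.25, adjusted p = 0.0326), the opposite direction to *Il18*. *Il1r1*, the signalling receptor of IL-1, rose by log2 0.35 ± 0.12 in CKO (adjusted p = 0.0325) and 0.95 ± 0.12 in WT (adjusted p = 6.17e-05), and *Il1rap*, its accessory chain, fell by 0.34 ± 0.12 on the log2 scale in WT (adjusted p = 0.0238). Without CKO_CRE replicate 2, *Il1rl1*, *Il1r1* (log2 -0.63, adjusted p = 0.00128) and *Il33* (-0.78, adjusted p = 0.0103) were called lower in CKO_CRE than in WT_CRE. *Il1rap* was called higher there (0.34, adjusted p = 0.0473). That fit called 28.5% of all tested genes in this comparison, against 0.893% with the library.

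Below the receptors, 7 of 18 signalling genes rose and 2 fell in CKO, and 8 rose and 5 fell in WT, with medians of log2 0.11 in CKO and 0.14 in WT. The CKO count was 5 rising and 3 falling without CKO_CRE replicate 2. *Myd88*, the shared adaptor, was among those that rose in CKO (log2 0.72 ± 0.14; adjusted p = 0.00186), and *Tnfaip3*, an inhibitor of NF-κB signalling, rose in CKO (0.72 ± 0.18; adjusted p = 0.00821) and in WT (0.93 ± 0.18; adjusted p = 0.000965). *Traf6*, a ubiquitin ligase of the same route, fell by 0.46 ± 0.09 on the log2 scale in CKO (adjusted p = 0.00216) and fell by 0.44 ± 0.09 in WT (adjusted p = 0.00132). *Tollip*, an inhibitor of IL-1 receptor signalling, fell by 0.32 ± 0.09 in CKO (adjusted p = 0.014) and fell by 0.41 ± 0.09 in WT (adjusted p = 0.00205).

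Among 15 tested sensors and adaptors, 10 rose and 2 fell in CKO (9 and 2 without CKO_CRE replicate 2), and 9 rose and 2 fell in WT. *Pycard*, the adaptor ASC that links NLRP3 to caspase-1, was at 21.6 ± 10.1 CPM in CKO_CRE and 7.67 ± 0.439 in CKO_PBS (log2 1.49 ± 0.28; adjusted p = 0.00222; 1.11 without CKO_CRE replicate 2, adjusted p = 0.00312), and at 24.8 ± 4.33 in WT_CRE and 8.19 ± 0.955 in WT_PBS (1.60 ± 0.29; adjusted p = 0.000621). *Mefv*, the gene of pyrin, rose by log2 1.88 ± 0.39 in CKO (adjusted p = 0.00335) and 2.41 ± 0.40 in WT (adjusted p = 0.00042). *Nek7*, which binds NLRP3, fell by 0.32 ± 0.08 on the log2 scale in CKO (adjusted p = 0.00773) and fell by 0.41 ± 0.08 in WT (adjusted p = 0.000937), and *Txnip*, a thioredoxin-binding protein gene, fell by 0.91 ± 0.13 in CKO (adjusted p = 0.000459) and fell by 1.18 ± 0.13 in WT (adjusted p = 3.58e-05). *Naip6*, a gene of the NAIP family that pairs with NLRC4, was the one sensor called between genotypes, at 15.0 ± 3.37 CPM in CKO_CRE and 7.74 ± 0.869 in WT_CRE (0.96 ± 0.18; adjusted p = 0.0331).

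All 6 tested caspase, gasdermin and membrane rupture genes rose in both genotypes, with *Gsdme* not called in CKO without CKO_CRE replicate 2 (adjusted p = 0.195). The top rise in CKO was that of *Casp4*, the caspase of the non-canonical inflammasome, at log2 1.73 ± 0.17 in CKO (adjusted p = 5.39e-05) and 1.37 ± 0.17 in WT (adjusted p = 5.73e-05). *Ninj1*, which carries out membrane rupture, rose by 0.81 ± 0.15 in CKO (adjusted p = 0.00144) and 1.08 ± 0.15 in WT (adjusted p = 0.000102).

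Of 12 genes known to be induced by IL-1, 9 rose and none fell in CKO, and 10 rose and none fell in WT. Without CKO_CRE replicate 2, 8 rose in CKO and the median change was log2 1.3, against 2.20 with it; *Il6*, at 1.91 ± 0.62 with it (adjusted p = 0.0296), was the call lost (adjusted p = 0.141). The neutrophil chemokine gene *Cxcl5* was at 25.3 ± 16 CPM in CKO_CRE and 0.755 ± 0.174 in CKO_PBS (log2 5.05 ± 0.57; adjusted p = 0.000191), and at 56.2 ± 4.5 in WT_CRE and 1.66 ± 0.664 in WT_PBS (5.07 ± 0.53; adjusted p = 3.9e-05). *Saa3*, an acute phase gene, was at 610.0 ± 341 CPM in CKO_CRE and 38.6 ± 16.3 in CKO_PBS (3.98 ± 0.54; adjusted p = 0.000507). It averaged 414.0 CPM in CKO_CRE without replicate 2, a change of 3.42 (adjusted p = 0.00256). In WT the top rises included *Nos2*, inducible nitric oxide synthase, at 4.86 ± 0.62 (adjusted p = 0.000147), and *Il6* at 4.48 ± 0.72 (adjusted p = 0.000331). *Ptgs2*, the cyclooxygenase gene, was not called in either genotype (-0.08 ± 0.28 in CKO, adjusted p = 0.836; 0.38 ± 0.28 in WT, adjusted p = 0.274), and none of the 12 was called between genotypes. Without CKO_CRE replicate 2, *Nos2*, *Cxcl5*, *Ccl20* and *Ptges* were called lower in CKO_CRE than in WT_CRE and *Icam1* higher, *Nos2* at log2 -3.70 (adjusted p = 0.000489). In the same fit *Ninj1* was called lower in CKO_CRE than in WT_CRE, at -0.44 (adjusted p = 0.0132). These calls stand against 28.5% of all tested genes called in this comparison without that library, and 0.893% with it.

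Of 11 genes around IL-18 and interferon gamma, 4 rose in CKO, and 4 rose and 1 fell in WT, counts that are close to the share of all tested genes called in CKO and under it in WT. Of the 4, 2 rose without CKO_CRE replicate 2, with *Cxcl9* (adjusted p = 0.0573) and *Il12rb1* (adjusted p = 0.0724) no longer called. *Ifng* itself was low, at 0.845 ± 0.228 CPM in CKO_CRE and 0.175 ± 0.139 in CKO_PBS (log2 2.21 ± 0.61; adjusted p = 0.013), and was at 0.82 ± 0.57 in WT (adjusted p = 0.235). The interferon-induced chemokine gene *Cxcl10* was at 41.2 ± 23.9 CPM in CKO_CRE and 3.33 ± 0.845 in CKO_PBS (3.63 ± 0.52; adjusted p = 0.000659; 33.2 CPM and 3.32 without CKO_CRE replicate 2, adjusted p = 0.0045), and at 20.9 ± 8.48 in WT_CRE and 3.74 ± 0.64 in WT_PBS (2.48 ± 0.51; adjusted p = 0.00193). *Il12b*, a subunit of IL-12, fell by 1.65 ± 0.40 on the log2 scale in WT (adjusted p = 0.00387) and was at -0.81 ± 0.39 in CKO (adjusted p = 0.111). None of these 11 genes was called between genotypes, with or without that library.

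The upstream windows of the 10 genes were searched for 9 motifs on both strands. All 10 had at least 1 RefSeq window of 250 bases before a start, 15 windows in all, some of which overlap. The STAT6 motif, TTC and GAA with 4 bases between them, was in 7 of the 15 windows, from 5 of the 10 genes. Of all 32851 windows, 5.85% held it. The 7 windows hold 5 distinct sites, 1 per gene, because overlapping windows count the same site again. The windows are thus not independent, and the motif was picked from 9 after the search. Enrichment over all windows was not tested. STAT6 is the transcription factor activated by IL-4 and IL-13, and a match is a description of letters, not evidence of binding. The matching 10 bases are in capitals with 10 bases on either side, and the 5 stretches are shown because this was the motif held by the most of the 10 genes.
Il18, chr9:50554644-50554673: tttgagacagTTCCCCAGAAtgcaaatagg
Il18r1, chr1:40465423-40465452: tggccttcgtTTCTTTTGAAcagtttaaaa
Il18rap, chr1:40515185-40515214: agagagagagTTCATCAGAAgaaagccttt
Il1rn, chr2:24345160-24345189: tgtgctcttcTTCCCAGGAAcaccatgaag
Nlrp3, chr11:59542554-59542583: ggcttcctccTTCCTTTGAAaataaaagca
The *Il1rn* and *Nlrp3* matches lie upstream of RefSeq starts that are inside the gene bodies. The 5 genes with a match include both that fell under CRE and others that rose, and *Il1a*, *Il1b*, *Il1r2*, *Il18bp* and *Casp1* have none in these windows.

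The other motifs were rarer among the 10 genes. The GAS spacing TTCNNNGAA was upstream of *Il18r1* and *Il1r2* (7.02% of all windows), as 3 matches that all lie inside the gene bodies, 2 of them over an exon of the gene, the AP-1 letters TGANTCA upstream of *Il1a* and *Il1rn* (6.75%), TTNNNCAAT upstream of *Il18* and *Il18rap* (10%), the PU.1 letters GAGGAAGT upstream of *Il18rap* (2.44%) and the NF-κB consensus upstream of *Nlrp3* (3.9%). The interferon-stimulated response element, the cAMP response element TGACGTCA and the C/EBP palindrome TTGCGCAA were in none of the 15 windows, against 2.98%, 1.55% and 0.164% of all windows. Overlaps between motifs were not removed.

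Within groups, several of the genes varied together or in opposition. After the group mean of log2(CPM + 0.5) was subtracted, the correlation over the 12 libraries was -0.861 between *Il18* and *Il1rn*, -0.8 between *Il18* and *Casp1*, -0.932 between *Il18r1* and *Il1rn*, 0.773 between *Il18* and *Il18r1*, 0.835 between *Il1r2* and *Nlrp3*, and 0.761 between *Il1b* and *Il1r2*. These points share libraries and their depth, CKO_CRE replicate 2 lies far from its group mean in several of the genes, and the values are descriptions. Among 14016 other protein-coding genes with a mean of at least 1 CPM, the pattern most like that of *Il18* was found in *Ccdc91* (0.98), *Tfcp2l1* (0.98) and *Trim62* (0.977), and that of *Il18r1* in *Zfp366* (0.979), *Tshz1* (0.976) and *Epc2* (0.975). For *Il18bp* it was *Uba1* (0.961), *Oas1c* (0.942) and *Fam69b* (0.921), and for *Il18rap* it was *Atl2* (0.975), *Cdv3* (0.972) and *Hsp90b1* (0.962). In the IL-1 branch, *Il1b* was closest to *Noct* (0.948), *Bdh2* (0.934) and *Amer2* (0.931), *Il1a* to *Wsb1* (0.966), *Hdgfl2* (0.959) and *Mecr* (0.951), *Il1rn* to *Klra2* (0.984), *Uchl5* (0.978) and *Nt5c* (0.978), and *Il1r2* to *Cct3* (0.988), *Zc3h15* (0.982) and *Cd44* (0.969). *Casp1* was closest to *Tifa* (0.98), *Gnl1* (0.974) and *Csf1r* (0.969), and *Nlrp3* to *Ier5* (0.979), *Bysl* (0.958) and *Arrdc4* (0.951).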

How the data were processed

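Libraries were prepared from oligo-dT selected RNA with a NEBNext Ultra kit, per the labels' protocols, which do not mention strand. The authors deposited raw read counts per Ensembl gene for 12 libraries in 1 table, all of whose sample columns were used. The submitters' processing notes list STAR, fastp and build mm10; the counting tool and its strand setting were not given in these sources. Positions and symbols are from GENCODE M21 (GRCm38), which matched 54409 of 54532 identifiers; the other 123 held at most 0.0417% of a library's counts. 22229 genes had no count.

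The counts went into edgeR 4.0.16 under R 4.3.3 (TMM, filterByExpr, group means, robust quasi-likelihood F test, all 12 libraries); p was adjusted by Benjamini-Hochberg over 17473 genes and a gene was called below 0.05. Adjusted p-values are edgeR's where no tool is named, and ± after a log2 value is the SE. The biological coefficient of variation was 17.4%. The fit was tested on simulated data. The members and lists were chosen with earlier results of these data known. Named genes are the 10 members, *Rhoa*, up to 3 called genes per list, comparison and direction by size of change (of which the text gives a part), and the 3 protein-coding genes most like each member. *Il1r1*, *Ptgs2*, the *Il18* neighbours and *Scgb1a1*, *Marco*, *Krt79*, *Cidec*, *Fabp1*, *Chil3*, *Siglecf*, *Ctsk*, *Ear1*, *Ear2*, *Car4*, *Cx3cr1*, *Muc5ac*, *Epcam* and *Cdh1*, the list genes named for a call that changed without CKO_CRE replicate 2, and a gene given for its other comparison, were added after their values were seen. TPM used the union exon length. Alternatives were DESeq2 size factors, the DESeq2 1.42.0 Wald test, limma 3.58.1 voom with quality weights, a fit without the low-count filter, sex as a covariate, a block for the replicate number, only the groups compared, and each library left out in turn. The lists and neighbours without CKO_CRE replicate 2 were an alternative added after the data were seen. Copies were searched with blastn 2.17.0 and none of the members had a near-identical copy beyond the antisense overlap of *Il1a*. Promoter sequences are from RefSeq (GRCm38.p6).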

Additional observations from a re-analysis of the deposited data

How the results depend on the processing

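The number of the 10 genes called changed by more than 1.5 times under some settings. For CKO against WT under CRE, edgeR called 1, DESeq2 2 and limma-voom 4; under PBS, edgeR called 0 and DESeq2, limma-voom, no low-count filter and only the groups compared 1 each; for the interaction, edgeR called 0, DESeq2 1 and limma-voom 3. Leaving out each library gave 7 to 9 for CRE in CKO, 9 to 10 for CRE in WT, 1 to 3 for genotype under CRE, 0 to 1 for genotype under PBS and 0 to 3 for the interaction. Over all genes, CKO against WT under CRE gave 156 calls, 838 by DESeq2, 7645 by limma-voom, 230 without the filter, 29 with only the groups compared and 38 to 5110 with a library left out; under PBS it gave 21, 114, 146, 41, 103 and 12 to 57, and the interaction 9, 128, 4371 and 23, with 2 with sex as a covariate and 0 to 2710 with a library left out. The CRE response in CKO gave 6814 calls and 3782 with only the groups compared. The causes were not tested.

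With the replicate number as a block, the paired fit called 140 genes between genotypes under CRE against 156 without it and 2 for the interaction against 9, and *Il1rn* there was at -0.092; the block changed no call among the 10 genes. Correlations of same-numbered deviations ran from -0.033 to 0.176, above 0.1 in 4 of 18 pairs. Those of different-numbered deviations ran from -0.247 to 0.176. The labels state no pairing, and these values do not decide whether the numbers pair the libraries.

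Signs turned only in values that were not called by edgeR. The *Nlrp3* interaction, near 0, was -0.001 with DESeq2 size factors and with DESeq2, -0.209 by limma-voom and -0.014 with the block. By limma-voom, genotype under CRE was -0.19 for *Il1a*, -0.615 for *Il1rn* (adjusted p = 0.0177) and -0.003 for *Nlrp3*. With sex as a covariate *Il1rn* was -0.065 under CRE and -0.037 under PBS. With a library left out, interactions ran from -0.288 to 0.174 for *Nlrp3*, -0.143 to 0.227 for *Casp1*, -0.508 to 0.103 for *Il1a* and -0.987 to 0.276 for *Il1rn*. Genotype under CRE ran from -0.882 to 0.381 for *Il1rn*, -0.249 to 0.121 for *Casp1*, -0.02 to 0.14 for *Il18rap* and -0.226 to 0.315 for *Il1a*, and under PBS from -0.052 to 0.182 for *Il18bp* and -0.041 to 0.002 for *Il18r1*. Of all recomputed values, 869 kept direction and side of the threshold. The *Il1r2* call for CRE in CKO was also lost by limma-voom (adjusted p = 0.116), without the filter (0.158), with sex (0.0758) and with only the groups compared (0.121), and the *Il18rap* call for CRE in WT without the filter (0.0833) and with sex (0.133). *Il1r2* had 17 reads in its lowest library, which limits its precision.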
